A study of Arabidopsis thaliana with 10 samples.

Results

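Of the loci with more than 1 annotated transcript in dark-grown Arabidopsis seedlings, 18 had a transcript whose share differed by at least 0.2 between rapamycin and mock in the RiD line, in both numbered pairs of libraries. The share is a transcript's value divided by the sum over all transcripts of its locus. A locus was kept when it had 2 or more transcript rows, a sum of at least 200 normalized counts in each RiD mock and RiD rapamycin library, and 1 transcript whose share moved by that much in one direction from mock 1 to rapamycin 1 and from mock 2 to rapamycin 2. Of the 32753 loci measured, 5880 had 2 or more rows and 3704 met the sum, so the 18 are 0.486% of the eligible loci. The loci were chosen by the shares in the RiD rapamycin and RiD mock libraries, so that difference is described below and not tested.

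A plant gene can give several mature RNAs from one locus. Different first exons, different donor or acceptor sites of an intron, skipped exons, introns left in place and different last exons all change which bases a transcript holds, and some of these choices change the protein while others change the untranslated ends alone. Reads that fall on bases common to all transcripts do not tell them apart, so the value of a transcript is an estimate that rests on the bases in which the transcripts differ.

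RNA of whole seedlings, aged 5 days and grown in the dark, was sequenced from poly(A) libraries in 5 groups of 2. The seedlings were the wild type Col-0 or the line RiD-BRI1/BAK1, here RiD, whose name joins BRI1, the receptor of brassinosteroids, with its partner kinase BAK1. All 5 groups, the mock groups included, grew on medium with 2 µM of a compound named PPZ. Col-0 was given mock or rapamycin at 100 nM, a macrolide that links the protein FKBP to the FRB domain of the TOR kinase. RiD was given mock, rapamycin at 100 nM, or brassinolide, the strongest natural brassinosteroid, at 100 nM. The sources used here do not give the promoter behind the RiD constructs or the number of independent lines. Libraries are numbered 1 and 2 in the labels, and nothing says whether the 2 came from separate plantings, so all spreads and p-values below measure the spread between these libraries.

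Totals ranged from 23.2 to 26.99 M normalized counts. The size of 1 read that best fitted the low values of each column gave estimated depths. These were 18.4 to 19.7 M reads for the libraries with number 1 and 29.3 to 33.996 M for those with number 2. The value of 19.7 M is that of Col-0 mock 1. With the estimated depth alone, a share of 0.5 at a locus sum of 200 would have a counting SD of 0.0301 to 0.0417. Low values lay near whole multiples of 1 read in at least 97.7% of cases, except in Col-0 mock 1 with 79.4% and Col-0 rapamycin 2 with 94.5%, so those libraries stand apart. Of the markers of seedling tissues, PORA of the etioplast had a median of 44328 normalized counts over the 10 libraries and CASP1 of the root endodermis 1513, while the root hair marker EXPA7 (median 28.8) and the root meristem marker PLT1 (median 20.7) were at 0 in at least 1 library. In whole seedlings a change in the cells that hold a transcript and a change within cells cannot be told apart.

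The isoforms of 6 loci that the values turn on differ at splice sites or start codons shown here, read from the TAIR10.1 reference with RefSeq's annotation, 5′ to 3′ on the strand of the gene. The sources used here do not name the annotation release behind the deposited table. All 52 transcript rows of the 18 loci have a counterpart of the same name in the reference, and the structures below are the reference's. Capitals mark the first 2 or last 2 bases of an intron, the start codon, or the bases that one transcript has and the other lacks.
AT4G20830, donor used by isoform 1 and read through by isoform 2 (chr4:11157088-11157117, + strand): accttgaaaaGTaaggcataattgatatat
AT4G20830, acceptor used by isoform 1 (chr4:11157457-11157486, + strand): tggacccaatttggtcgcAGatgagaaggg
AT2G41640, donor used by isoform 2 and read through by isoform 1 (chr2:17362309-17362338, + strand): tcagagaaacGTtaactcgttcgtatgatt
AT2G41640, acceptor used by isoform 2 (chr2:17362871-17362900, + strand): gtgcttggttgattctgcAGatctattggc
IBM1, donor used by isoforms 1 and 3 and read through by isoform 2 (chr3:2429115-2429144, + strand): gtctgatgcgGTtagtacccatatgatttg
IBM1, acceptor of the extra exon of isoform 3 (chr3:2429539-2429568, + strand): agttcttacgctgttcatAGgacctatgga
IBM1, acceptor used by isoform 1 (chr3:2431079-2431108, + strand): gtaccctttggttatttcAGgtgaatattt
IBM1, second acceptor used by isoform 3 (chr3:2431107-2431136, + strand): tttgacgcacatatctgaAGtgcccaatat
BCA4, start codon of isoform 2 (chr1:26537437-26537466, - strand): tcatttataATGgctcctgcattcggaaaa
BCA4, start codon of isoforms 1 and 3 (chr1:26536485-26536514, - strand): aaagacgaaATGgcaacggaatcgtacgaa
AT5G60170, acceptors, with the 6 bases that isoform 2 has and isoform 1 lacks (chr5:24229680-24229715, + strand): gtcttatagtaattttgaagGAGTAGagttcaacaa
BGAL17, acceptors, with the 13 bases that isoform 2 has and isoform 1 lacks (chr1:27461645-27461687, - strand): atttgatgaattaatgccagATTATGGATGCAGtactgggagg

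**Figure D1:**
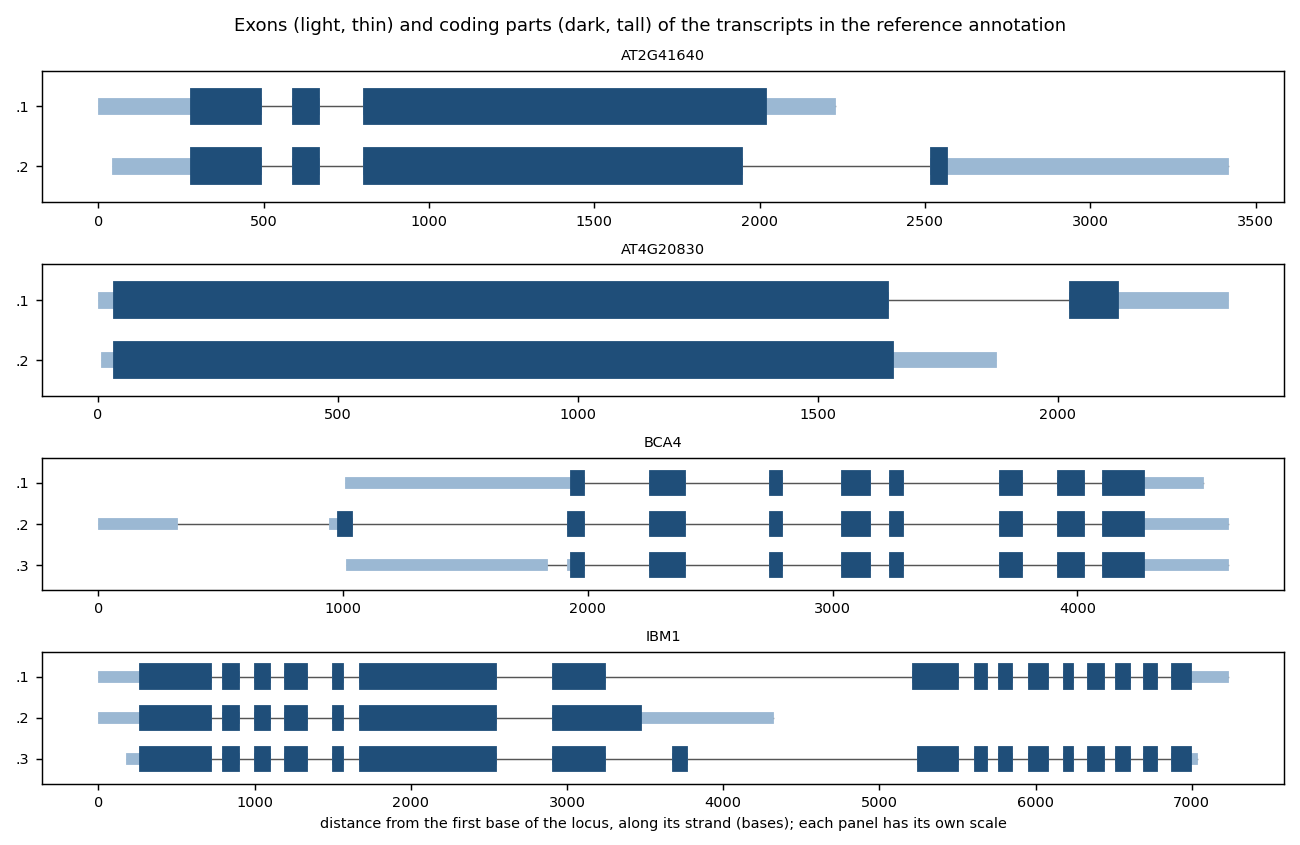
Exons of the transcripts of AT2G41640, AT4G20830, BCA4 and IBM1 in the reference annotation, against the distance in bases from the first base of each locus along its strand; thin light boxes are exons, tall dark boxes are their coding parts and lines are introns. AT2G41640 and AT4G20830 differ in whether the last intron is spliced, BCA4 in its first exons, and IBM1 in how its longest intron is handled.

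The enzymes among the 18 held the loci whose transcripts moved most in amount. AT2G41640, at chr2:17360374-17363788, encodes a glycosyltransferase of family 61, a family with members that build xylan and other glycans of the cell wall and secretory pathway. Its transcript 1 ends in the read-through of the last intron and its transcript 2 splices an intron of 572 bases to a last exon of 898 bases, with coding lengths of 1503 and 1479 bases. Isoform 1 held a share of 0.34 and 0.293 in RiD mock and 0.656 and 0.757 in RiD rapamycin. It was 0.598 and 0.514 in RiD brassinolide, 0.505 and 0.299 in Col-0 mock, with 0.343 and 0.168 in Col-0 rapamycin. Both rapamycin libraries of RiD lay above the other 8 libraries, and all 4 rapamycin and brassinolide libraries of RiD lay above the other 6. The choice of the locus favours the distance of RiD rapamycin from RiD mock in both patterns. Rapamycin and brassinolide libraries of RiD lay outside the other 6 at 3 of the 18 loci, and this was not counted over the eligible loci.

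In amount, AT2G41640.1 went from 174 and 150.5 normalized counts in RiD mock to 877 and 1013 in RiD rapamycin, with 613 and 416 in RiD brassinolide. Transcript 2 had 338 and 364 in RiD mock, 459 and 325 in RiD rapamycin, with 411 and 393 in RiD brassinolide, so that the locus gained isoform 1 while isoform 2 stayed within 325 to 459. The locus sum was 513 ± 1.19 (SD, n = 2) in RiD mock and 1337 ± 1.4 in RiD rapamycin, 2.6-fold higher. The whole last exon of isoform 2, 898 of 898 bases, lies inside an exon of the next gene on the same strand, AT2G41650. That gene had 498 and 323 normalized counts in RiD mock, 277 and 160.0 in RiD rapamycin, 367 and 222 in RiD brassinolide, 749.9 and 479 in Col-0 mock, with 577 and 473 in Col-0 rapamycin. Its mean was lowest in RiD rapamycin, where the share of AT2G41640.1 was highest, although RiD brassinolide 2 lay below RiD rapamycin 1, and the part of reads shared between these 2 genes in the result was not tested.

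AT4G20830, at chr4:11155453-11157806, encodes an oxidase of the berberine bridge enzyme-like family, whose members bind FAD. Transcript 1 splices an intron of 379 bases near the 3′ end and transcript 2 reads through its donor for 225 bases, which gives coding lengths of 1713 and 1623 bases. As a share of the locus, isoform 1 stood at 0.561 and 0.451 in RiD mock, 0.253 and 0.172 in RiD rapamycin, with 0.379 and 0.267 in RiD brassinolide. It was 0.564 and 0.427 in Col-0 mock, with 0.606 and 0.48 in Col-0 rapamycin. As at AT2G41640, the rapamycin libraries of RiD lay outside the other 8 libraries, here on the low side. The 4 rapamycin and brassinolide libraries of RiD lay below the other 6. The choice of the locus favours both patterns here as well.

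The amounts of AT4G20830 moved in one transcript. Transcript 2 had 815 and 944 normalized counts in RiD mock, 2921 and 3353 in RiD rapamycin, with 1933 and 1877 in RiD brassinolide. In Col-0 it had 789 and 886 with mock, then 726 and 716 with rapamycin. Transcript 1 had 1043 and 775 in RiD mock, 987 and 698 in RiD rapamycin, with 1179.5 and 684 in RiD brassinolide. The unspliced form was thus higher in each rapamycin and brassinolide library of RiD than in each of the other 6 libraries, while the values of the spliced form overlapped between these groups. The locus sum was 1789 ± 98.2 in RiD mock and 3979 ± 102 in RiD rapamycin, 2.23-fold higher. The reference places a gene on the opposite strand, AT4G20835, over 937 exon bases of isoform 1 and 946 of isoform 2; the sources used here do not say whether counting used the strand, and the values at this locus are uncertain to that extent.

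BCA4, at chr1:26533824-26538437, encodes a beta carbonic anhydrase, an enzyme that interconverts carbon dioxide and bicarbonate. Its transcript 2 starts 1015 bases upstream of isoform 3 and codes for a protein that starts at an upstream exon, with a coding length of 843 bases against 777 for isoforms 1 and 3. Transcript 2 had 3150.2 and 3022 normalized counts in RiD mock and 894 and 1236 in RiD rapamycin. Its share was 0.541 and 0.674 in RiD mock, 0.158 and 0.282 in RiD rapamycin, 0.35 and 0.589 in RiD brassinolide, 0.553 and 0.668 in Col-0 mock, with 0.515 and 0.601 in Col-0 rapamycin. The RiD rapamycin libraries lay below the other 8, and of the 2 brassinolide libraries 1 lay below and 1 within the range of the mock and Col-0 libraries.

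At BCA4 the sum of the locus was close in the 2 groups while its transcripts differed in opposite directions. Transcript 3 had 1846 and 1345 normalized counts in RiD mock and 2878 and 2266 in RiD rapamycin, and transcript 1 had 828 and 115 in RiD mock and 1901 and 875 in RiD rapamycin. The sums were 5153 ± 949 in RiD mock and 5025 ± 918 in RiD rapamycin, a ratio of 0.975. BCA4 had the highest sums of the 18 loci, up to 6831 normalized counts in a library, and its replicates still differed by 0.239 in the share of isoform 2 in RiD brassinolide.

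**Figure D2:**
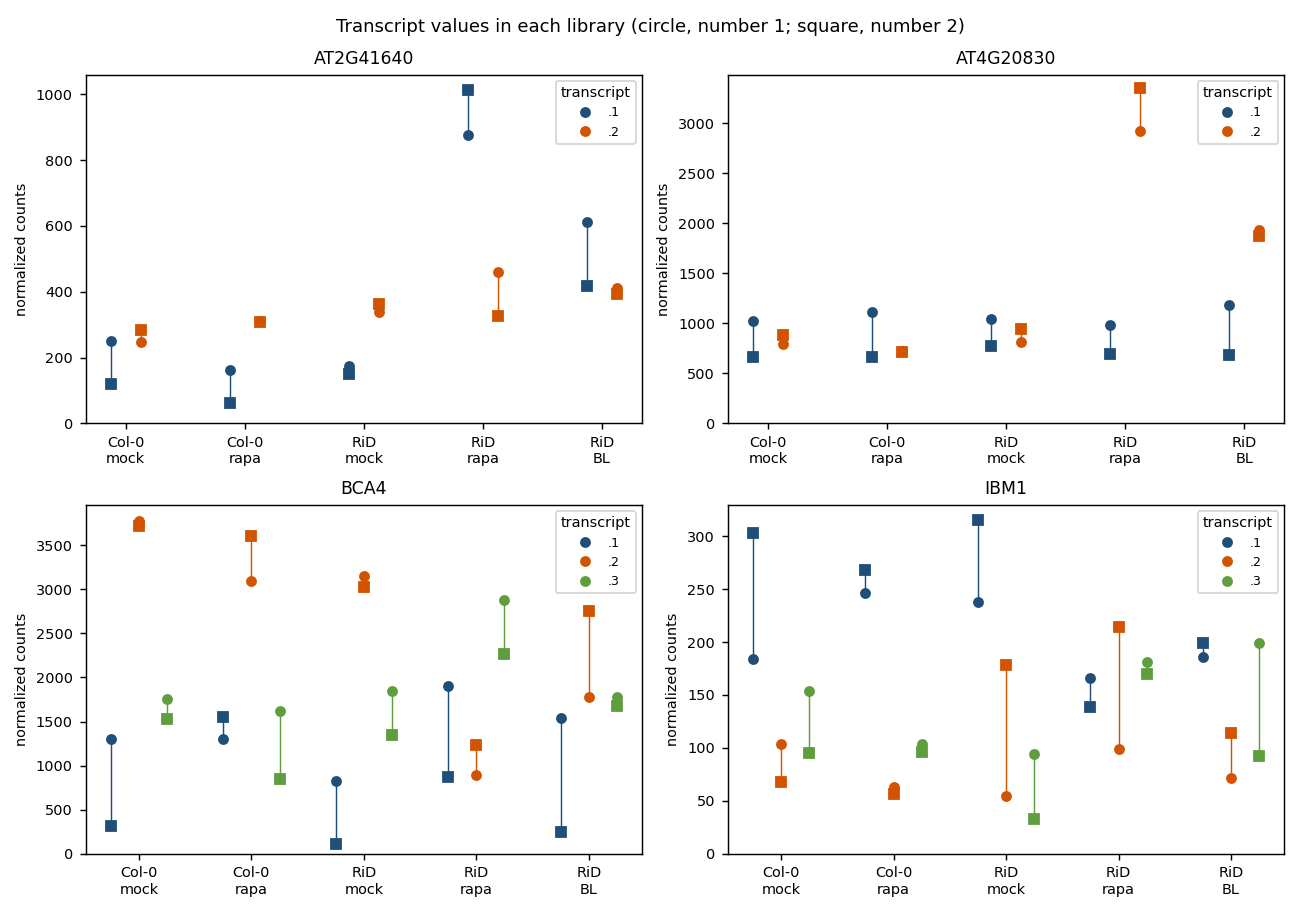
Normalized counts of each transcript of AT2G41640, AT4G20830, BCA4 and IBM1 in the 10 libraries, by group (rapa, rapamycin; BL, brassinolide); circles are libraries numbered 1, squares those numbered 2, and a line joins the 2 libraries of a group. AT2G41640.1 reaches 877 and 1013 and AT4G20830.2 2921 and 3353 in RiD rapamycin, while BCA4.2 is at 894 and 1236 there.

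The other wall and lipid enzymes had shares that varied more between replicates. CSLA03, a cellulose synthase-like enzyme of the mannan-synthesizing A family, had a share of its transcript 1 of 1 and 0.615 in RiD mock and 0 and 0.17 in RiD rapamycin, the largest mean change of the 18 at -0.723. The share was 0.272 and 0.131 in RiD brassinolide and 0.917 and 0.732 in Col-0 rapamycin. In Col-0 mock it was 0.918 and 0, so the 2 mock libraries of the wild type spanned nearly the whole range. Transcripts 1 and 2 of CSLA03 share their coding sequence of 1671 bases and differ outside it.

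BGAL17, a beta-galactosidase, differs between isoforms 1 and 2 by the 13 bases printed above among 29 bases in all, and the annotated coding lengths are 2094 and 1908 bases. The share of isoform 1 was 1 and 0.914 in RiD mock, 0.541 and 0.486 in RiD rapamycin, with 1 and 0.811 in RiD brassinolide. In Col-0 it was 0.548 and 0.914 with mock and 1 and 0 with rapamycin, the full range of a share between 2 libraries of a group. Its locus sums were 212 and 326 in RiD mock and 206 and 335 in RiD rapamycin, among the lowest of the 18.

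AT3G06770, a pectin lyase-like protein of the polygalacturonase family that cuts pectin, was one of the loci with a higher sum, at 357 ± 114 in RiD mock and 981 ± 309 in RiD rapamycin, 2.74-fold. The share of its transcript 3 was 0.729 and 0.702 in RiD mock and 0.131 and 0.36 in RiD rapamycin. The share in RiD brassinolide was 0 and 0.603. In Col-0 it was 0.337 and 0.652 with mock, then 0.302 and 0.723 with rapamycin. In these 3 groups the library numbered 1 was lower each time, and the replicates differed by at least 0.315.

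LCB1, a subunit of serine palmitoyltransferase, which makes the long-chain bases of sphingolipids, had a share of transcript 2 of 0.44 and 0.0585 in RiD mock and 0.675 and 0.505 in RiD rapamycin. In Col-0 the same share was 0.463 and 0 with mock and 0.709 and 0.678 with rapamycin, and in RiD brassinolide it was 0.491 and 0.076. The 4 libraries with rapamycin, from both lines, lay above the other 6 libraries. The choice of the locus favours the RiD part of this pattern, which was not counted over the eligible loci. In every group the library numbered 2 was the lower, at 0.0585 in RiD mock, 0 in Col-0 mock and 0.076 in RiD brassinolide. Transcripts 1 and 2 have the same coding length of 1449 bases and differ by 633 bases outside the coding sequence.

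Among the chromatin and RNA-binding members, IBM1 is the best known for its isoforms. It encodes a JmjC-domain histone demethylase that removes methylation of histone H3 lysine 9 from gene bodies, and its long intron is known to decide between a full-length and a short transcript. Transcript 1 splices that intron of 1974 bases in one step, isoform 3 puts an exon of 94 bases into it and joins 28 bases further into the next exon, and isoform 2 ends 1079 bases inside it. Isoform 1 held a share of 0.615 and 0.599 in RiD mock and 0.372 and 0.265 in RiD rapamycin. It was 0.408 and 0.491 in RiD brassinolide, 0.417 and 0.65 in Col-0 mock, with 0.596 and 0.638 in Col-0 rapamycin, so the rapamycin libraries of RiD were the lowest of the 10. From RiD mock to RiD rapamycin, isoform 1 went from 237 and 316 to 166 and 138 normalized counts and isoform 3 from 94.2 and 32.8 to 181 and 169.9. The short transcript 2, with 54.2 and 179 in RiD mock and 98.8 and 214 in RiD rapamycin, overlapped between the groups, and the locus sum was 456 ± 99.7 in RiD mock and 484 ± 54.6 in RiD rapamycin.

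AT5G60170, a protein with an RNA recognition motif, differs between isoforms 1 and 2 by 8 bases in all, of which 6 are the coding bases shown above. As a share of the locus, isoform 2 stood at 0.789 and 0.744 in RiD mock, 0.239 and 0.509 in RiD rapamycin, with 1 and 0.599 in RiD brassinolide. It was 0.631 and 0.631 in Col-0 mock, with 0.098 and 0.521 in Col-0 rapamycin. Rapamycin libraries of both lines held shares below the mock libraries of their own line, and Col-0 rapamycin 1, at 0.098, was the lowest of the 10. The choice of the locus favours the RiD part of this. In Col-0, rapamycin and mock shares of the transcript with the largest mean change did not overlap at 25.7% of eligible loci. With 8 differing bases, few reads can tell these 2 transcripts apart.

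Among the regulators of growth and of the day, PIF5 (PIL6 in the reference), a bHLH factor that drives growth in the dark, had 4 transcript rows. The share of its transcript 2 was 0.424 and 0.533 in RiD mock, 0.186 and 0.318 in RiD rapamycin, 0 and 0.092 in RiD brassinolide and 0 in all 4 Col-0 libraries. The mean share differed more between the mock groups of the 2 lines than with rapamycin in RiD. Transcript 2 itself had 151 and 419.8 normalized counts in RiD mock and 124 and 399.7 in RiD rapamycin. Isoform 3, with the same coding sequence, had 188 and 225 in RiD mock and 487 and 573 in RiD rapamycin, so isoform 3 differed without overlap and isoform 2 overlapped. The locus sum was 572 ± 305 in RiD mock and 962 ± 418 in RiD rapamycin, with 279 and 628 in the Col-0 mock libraries.

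LNK1 (AT5G64170), a partner of factors of the circadian clock, skips an exon of 130 bases in isoform 1 that isoform 2 keeps; the start codon of isoform 2 lies in that exon, and the coding lengths are 1701 and 1851 bases. The start of isoform 2 (chr5:25675914-25675943, - strand) and that of isoform 1 (chr5:25675425-25675454, - strand) read:
LNK1, start codon of isoform 2: ttgggaggaATGtcggacttgtacattcat
LNK1, start codon of isoform 1: aatgatgatATGggtagtggaacaaaccat
The share of isoform 2 was 0.37 and 0.457 in RiD mock, 0.643 and 0.702 in RiD rapamycin, with 1 and 0.925 in RiD brassinolide. It was 0 and 0.63 in Col-0 mock, with 0.212 and 0.152 in Col-0 rapamycin. The 4 rapamycin and brassinolide libraries of RiD held the highest shares of the 10, the brassinolide libraries above the rapamycin libraries. The choice of the locus favours the part of this that sets RiD rapamycin above RiD mock. The sums were low, 213 and 417 in RiD mock and 269 and 403 in RiD rapamycin, and a gene on the opposite strand, AT5G64160, shares 245 exon bases with both transcripts. That gene had 623 and 499.8 normalized counts in RiD mock and 642 and 481 in RiD rapamycin.

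Of the members tied to membranes and signalling, AT3G08680, a leucine-rich repeat receptor kinase, showed a difference between libraries numbered 1 and 2. The share of isoform 1 was 0.628 and 0.13 in RiD mock and 0.85 and 0.363 in RiD rapamycin, so that the groups overlapped although rapamycin was higher within each numbered pair. It was the 1 locus of the 18 whose RiD mock and rapamycin shares overlapped, and its mean change of 0.228 was among the smallest. In Col-0 the share was 0.833 and 0.269 with mock, then 0.574 and 0.694 with rapamycin, and in RiD brassinolide it was 0.819 and 0.539.

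AT2G43490, a GTPase-activating protein of the Ypt/Rab type, which acts on the small GTPases of vesicle traffic, had 6 transcript rows. Isoform 1 held a share of 0.386 and 0.434 in RiD mock and 0 and 0.155 in RiD rapamycin, the 2 lowest of the 10 libraries. It was 0.281 and 0.573 in RiD brassinolide, 0.455 and 0.4 in Col-0 mock, with 0.437 and 0.577 in Col-0 rapamycin. Transcript 1 had 105 and 169.8 normalized counts in RiD mock and 0 and 60.4 in RiD rapamycin, so the change rests on few reads.

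AT1G67800, of the copine family, whose members bind calcium and membranes, had a share of transcript 4 of 0.652 and 0.643 in RiD mock and 0.349 and 0.357 in RiD rapamycin. The share was 0.498 and 0.39 in RiD brassinolide, 0 and 0.411 in Col-0 mock, with 0.215 and 0.44 in Col-0 rapamycin. Transcript 3 was listed at 0 in both RiD mock libraries and had 138 and 132 normalized counts in RiD rapamycin, 169 and 171 in RiD brassinolide and 154 and 77 in Col-0 mock. For isoform 4 the RiD mock libraries, rather than the treated ones, stood apart from all others.

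At AT1G07280, a tetratricopeptide repeat protein, the RiD mock libraries also lay at one end of the range. Its transcript 2 was listed at 0 in both RiD mock libraries and in RiD brassinolide 2, and had shares of 0.899 and 0.321 in RiD rapamycin, 0.896 in RiD brassinolide 1, 0.678 and 0.624 in Col-0 mock, with 0.669 and 0.584 in Col-0 rapamycin. The 4 Col-0 libraries thus held a transcript that is listed at 0 in RiD mock. A value of 0 in a transcript table can be a failed estimate, and the locus sums were 235 and 295 in RiD mock and 235 and 272 in RiD rapamycin.

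AT1G05320, annotated as resembling a myosin heavy chain, had the largest change of the locus sum, from 506 ± 87.7 in RiD mock to 1508 ± 40.8 in RiD rapamycin, 3-fold. All of its transcripts had higher values there; isoform 1 went from 542 and 347 to 967 and 749 normalized counts, isoform 2 from 0 and 84.9 to 432 and 421 and isoform 3 from 25.8 and 11.2 to 138 and 309. As a share of the locus, isoform 1 stood at 0.955 and 0.783 in RiD mock, 0.629 and 0.506 in RiD rapamycin, 0.739 and 0.941 in RiD brassinolide, 0.818 and 0.561 in Col-0 mock, with 0.678 and 0 in Col-0 rapamycin. Its isoforms 1, 2 and 3 have 1 coding sequence length, 2373 bases.

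AT3G26920 and AT5G62760 complete the set. AT3G26920, with leucine-rich repeats and an FBD domain, keeps an intron of 117 bases in isoform 1 that isoform 2 removes, and the share of isoform 1 was 0.858 and 0.839 in RiD mock, 0.638 and 0.545 in RiD rapamycin, 0.814 and 0.696 in RiD brassinolide, 0.521 and 0.893 in Col-0 mock, with 0.787 and 0.547 in Col-0 rapamycin. AT5G62760, annotated as a P-loop nucleoside triphosphate hydrolase, keeps an exon of 56 bases in isoform 3 that isoform 2 skips, with coding lengths of 1935 and 1152 bases. Its share of isoform 3 was 0.403 and 0.18 in RiD mock, 0.634 and 0.436 in RiD rapamycin, 0.199 and 0.323 in RiD brassinolide, 0.474 and 0.114 in Col-0 mock, with 0.046 and 0.34 in Col-0 rapamycin. At AT3G26920 Col-0 libraries lay on both sides of the RiD rapamycin values, and at AT5G62760 Col-0 mock 1 lay between them.

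**Figure D3:**
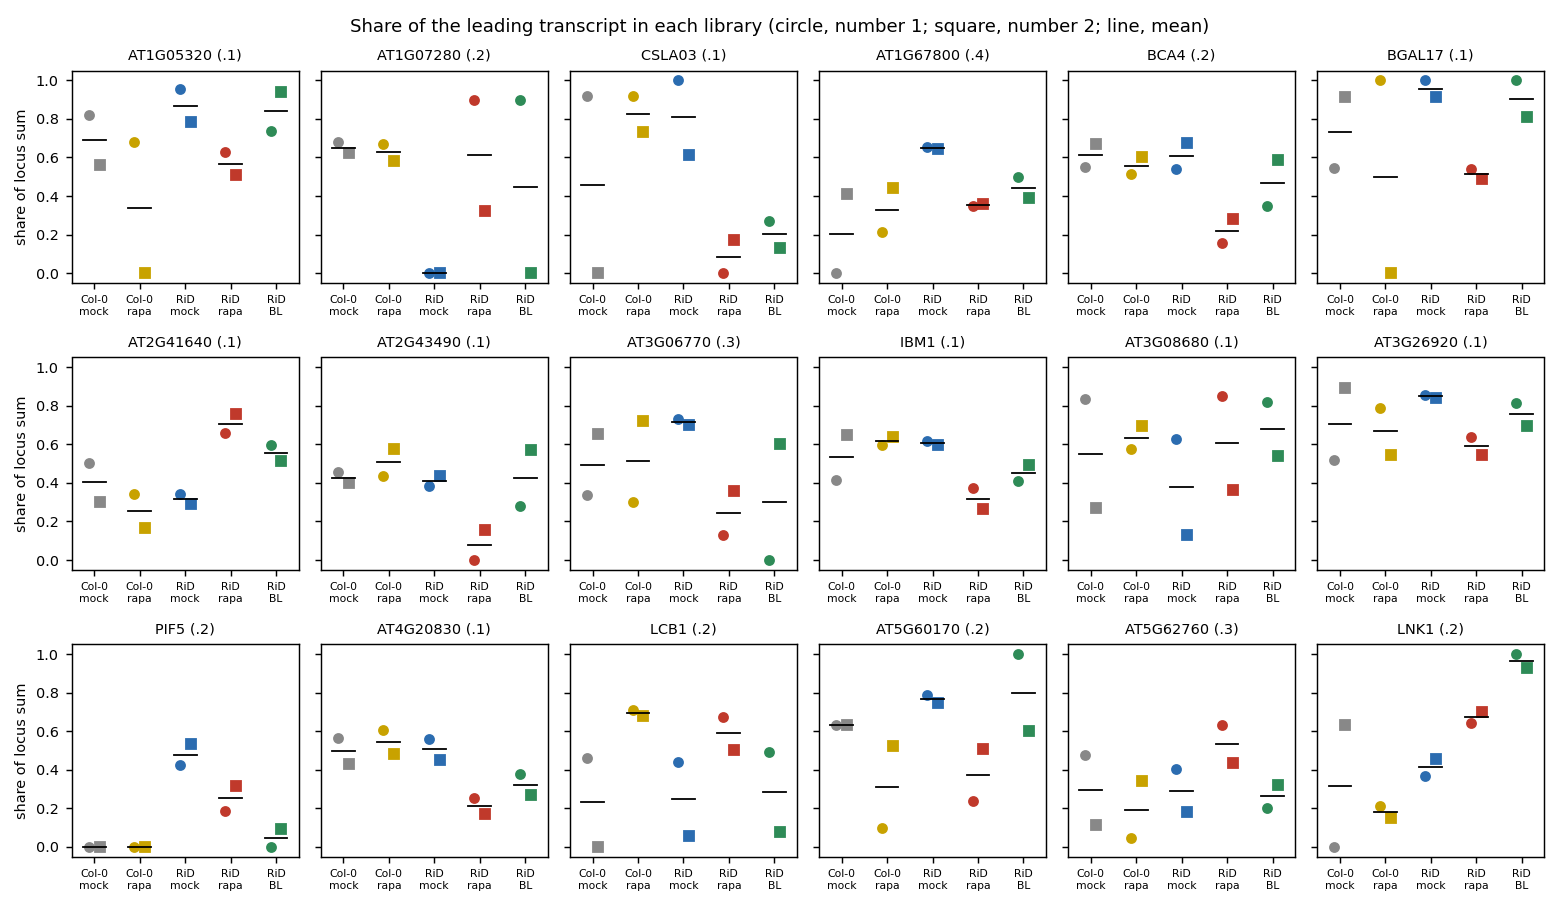
Share of the transcript with the largest mean change at each of the 18 loci (its number in brackets) in the 10 libraries, by group (rapa, rapamycin; BL, brassinolide); circles are libraries numbered 1, squares those numbered 2 and lines the group means. The RiD mock and rapamycin points are apart by the choice of the loci, except at AT3G08680, while the 2 points of a group that did not enter the choice often differ by 0.2 or more.

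The 18 loci fell into different kinds of change. The locus sum was at least 1.5-fold higher in RiD rapamycin than in RiD mock at 7 loci, within 1.5-fold at 11 and at least 1.5-fold lower at 0. The transcript that gained share was the longer of the pair at 5 loci and the shorter at 13, against 1727 longer, 1939 shorter and 3 of equal length over the 3669 eligible loci with both structures known. The pair had the same coding sequence at 9 of 18 loci (50%), against 32.0% of the eligible loci, and differed by a median of 368.5 bases against 243. The members were less abundant, with a median locus sum of 478 normalized counts against 1018. Of the 18, 10 had 3 or more transcript rows, against 1138 of the 3704 eligible loci. These are counts and medians with no test. How many eligible loci changed their sum by 1.5-fold was not counted.

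Just inside the threshold, the smaller change of the 2 pairs was 0.222 at AT3G08680, 0.220 at AT3G26920 and 0.215 at PIF5. Just outside it stood AT1G52730.2 with 0.185, AT1G47740.2 with 0.182 and AT3G15430.2 with 0.182. Of the 18 loci, 11 changed by at least 0.2 in all 4 pairings of a RiD rapamycin with a RiD mock library, a stricter form chosen after seeing the data. These were AT1G07280, CSLA03, AT1G67800, BCA4, BGAL17, AT2G41640, AT2G43490, AT3G06770, IBM1, AT3G26920 and AT5G60170.

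The same rule was applied to comparisons that do not involve rapamycin in RiD, as a background. Rapamycin against mock in Col-0 gave 71 of 3870 eligible loci, 1.83%. Brassinolide against mock in RiD gave 23 of 3796, 0.606%, brassinolide in RiD against Col-0 mock 18 of 3791, 0.475%, and RiD mock against Col-0 mock 27 of 3860, 0.699%. The share of loci passing with rapamycin in RiD, 0.486%, therefore lay within the range of the other comparisons. It was below that of rapamycin in the wild type. With all 4 pairings required, rapamycin in RiD gave 0.297%, below each of the other comparisons. Those were 1.27% for rapamycin in Col-0 and 0.342% for brassinolide in RiD. Against Col-0 mock, brassinolide in RiD gave 0.317% and RiD mock 0.311%. The 2 libraries that stand apart in their low values, Col-0 mock 1 and Col-0 rapamycin 2, are both in the Col-0 comparison, and their part in its count was not tested.

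**Figure D4:**
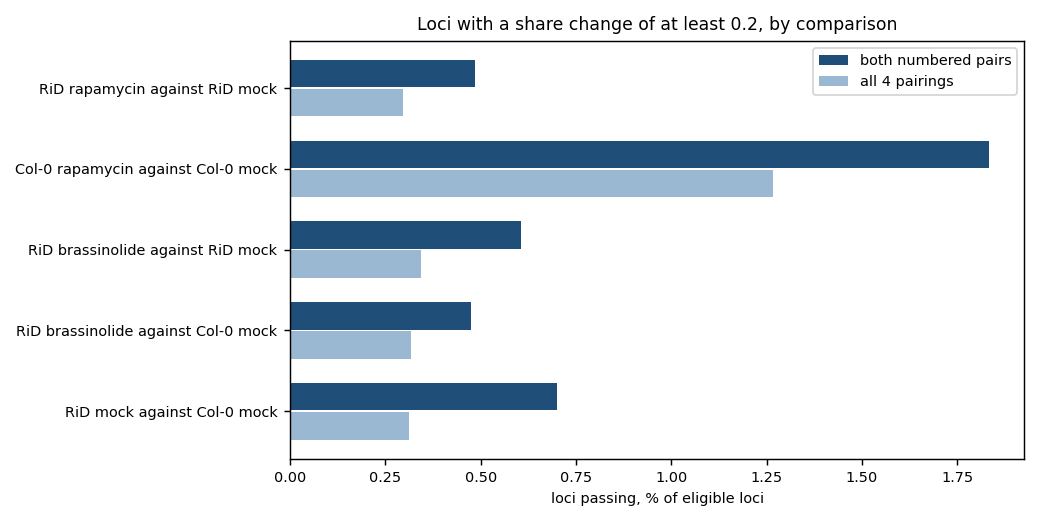
Percentage of eligible loci with a transcript share change of at least 0.2, in both numbered pairs (dark bars) or in all 4 pairings of libraries (light bars), for the 5 comparisons. Rapamycin against mock gives 0.486% in RiD and 1.83% in Col-0.

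Some members passed the rule in other comparisons. Against Col-0 mock, rapamycin in Col-0 gave 2 of the 15 members eligible there, AT1G05320 and LCB1, beside 1.83% of all eligible loci, and brassinolide in RiD gave 0 of 16 beside 0.475%. Brassinolide against mock in RiD, which shares the RiD mock libraries with the rule, gave 5 of 18 beside 0.606%, namely CSLA03, AT1G67800, AT2G41640, PIF5 and LNK1. RiD mock against Col-0 mock, which also uses those RiD mock libraries, gave 3 of 16 beside 0.699%, namely AT1G07280, AT1G67800 and PIF5. The choice of the loci on the RiD mock libraries favours the counts of 5 and 3.

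The spread between replicates bears on each of these shares. Over 3398 eligible transcript rows with a mean share between 0.1 and 0.9, the 2 libraries of a group differed by a median of 0.104 in Col-0 mock, 0.0700 in Col-0 rapamycin, 0.108 in RiD mock, 0.119 in RiD rapamycin, with 0.103 in RiD brassinolide. A difference of 0.2 or more between replicates was found in 15.5% to 32.7% of these rows. The transcripts that led at the 18 loci differed by 0.2 or more between replicates at 12 of 18 loci in Col-0 mock, 7 in Col-0 rapamycin and 8 in RiD brassinolide, but at 4 in RiD mock and 4 in RiD rapamycin, the groups on which they were chosen. At 12 of the 18 loci, replicates in at least 1 of the 3 groups that did not enter the choice differed by as much as the mean change with rapamycin. Counting any of 3 groups raises this number, and it was not counted over the eligible loci.

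Shares were tested in the 6 libraries that the rule did not use, for brassinolide in RiD and for rapamycin in Col-0, each against Col-0 mock. The first of these compares RiD given brassinolide with the wild type given mock, so that the line and the treatment cannot be told apart in it. By limma on the log2 ratio of a transcript to the rest of its locus, with Benjamini-Hochberg adjustment over 6175 rows of 3724 loci, 0 loci (0%) passed an adjusted p of 0.05 for brassinolide and 0 (0%) for Col-0 rapamycin. At an unadjusted p of 0.05, 172 loci (4.62%) and 190 loci (5.1%) had a row below it. Of these loci, 3 and 1 were among the 15 members tested. For brassinolide the members' rows were AT1G05320.3, AT2G43490.3 and AT3G06770.2, and for Col-0 rapamycin AT1G05320.3. None of them is the leading transcript of its locus. Loci with more transcript rows have more chances of a row below 0.05. The smallest adjusted p of a member's row was 0.827 for brassinolide and 0.843 for Col-0 rapamycin. Leaving out Col-0 mock 1 or Col-0 rapamycin 2, the libraries that stand apart, also gave 0 loci. AT3G26920, BGAL17 and LNK1 were not tested because a Col-0 library fell under the sum of 200.

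The loci whose RiD rapamycin shares lay outside the other 8 libraries were BCA4, AT2G41640, AT2G43490, IBM1 and AT4G20830, 5 of 18 against 3.4% of all eligible loci, a count that the choice of the members favours. In brassinolide against Col-0 mock their leading transcripts had log2 ratios that differed by -1.05 (SE 0.54) at AT4G20830.1, 0.91 (SE 0.72) at AT2G41640.1, -0.85 (SE 0.63) at BCA4.2, -0.49 (SE 0.61) at IBM1.1 and -0.03 (SE 0.74) at AT2G43490.1. None passed the test, with adjusted p-values by limma of 1 at each locus and a range of 0.783 to 1 over the alternatives tried. In Col-0 rapamycin against Col-0 mock, AT4G20830.1 differed by 0.28 (SE 0.54), AT2G41640.1 by -0.99 (SE 0.72), IBM1.1 by 0.47 (SE 0.61) and AT2G43490.1 by 0.45 (SE 0.74), in the direction opposite to that in RiD, and BCA4.2 by -0.32 (SE 0.63), in the same direction. When 1 library was left out, the brassinolide difference ranged from -1.55 to -0.14 at BCA4.2, 0.30 to 1.52 at AT2G41640.1 and -1.45 to -0.66 at AT4G20830.1, and it took both signs at IBM1.1 and AT2G43490.1. The Col-0 rapamycin difference ranged from -1.64 to -0.34 at AT2G41640.1 and from 0.06 to 0.85 at AT2G43490.1, and it took both signs at AT4G20830.1, IBM1.1 and BCA4.2. The 95% intervals of all 15 tested leading transcripts held 0 in both comparisons. PIF5.2 was listed at 0 in all 4 Col-0 libraries. Its Col-0 rapamycin difference therefore reflects the added constant of 5 and the rest of the locus, not a change of its share. On the same scale the difference described for rapamycin in RiD was 2.37 at AT2G41640.1 and -1.94 at AT4G20830.1, a size that the choice of the loci favours. For Col-0 rapamycin the interval ran from -2.87 to 0.89 at AT2G41640.1 and from -1.14 to 1.70 at AT4G20830.1. At 6 of 15 loci it excluded the size described in RiD, namely CSLA03, BCA4, AT2G41640, AT2G43490, IBM1 and AT4G20830. At the other 9 loci the half-width of the interval was as large as that size or larger, so a change of that size was not detectable. The half-width was larger than the size at CSLA03 too, where the interval ran from -4.50 to 11.84, beside -7.51 in RiD. For brassinolide the interval ran from -0.97 to 2.79 at AT2G41640.1 and from -2.48 to 0.37 at AT4G20830.1. At 12 of 15 loci it held the size described in RiD as well as 0. At 9 of these 12 the half-width was as large as that size or larger, so that a change of that size was not detectable there. At AT2G41640, AT4G20830 and IBM1 the half-width was smaller. The interval excluded the size at AT1G07280, BCA4 and AT2G43490, with a half-width larger than the size at AT1G07280.

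Over all 18 loci, the mean share of the leading transcript moved in brassinolide against Col-0 mock in the direction seen with rapamycin in RiD at 10 loci and in the opposite direction at 8, against 54.4% in that direction over 3182 eligible loci. In Col-0 rapamycin against Col-0 mock it moved in that direction at 7 loci and opposite at 10, with PIF5 at 0 in both groups, against 51.2% of 3155. Among the members the percentages were 55.6% for brassinolide, close to the eligible loci, and 41.2% for Col-0 rapamycin, below them. These differences were not tested. Shares of the leading transcript did not overlap between brassinolide and Col-0 mock at 3 of 18 loci against 22.4% of eligible loci, and between Col-0 rapamycin and Col-0 mock at 2 of 18 against 25.7%.

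The locus sums of the members were tested for rapamycin in Col-0, whose libraries did not enter the choice. By limma over 23285 loci, 0 loci (0%) were called at an adjusted p of 0.05, 557 had an unadjusted p below 0.05, and the 18 members each had an adjusted p of 1. Their log2 differences ran from -0.12 (SE 0.18) at IBM1 to 0.22 (SE 0.54) at PIF5. The loci whose sums rose most with rapamycin in RiD had sums close to mock in Col-0. Among these, AT1G05320 had 441 ± 23.1 with mock and 420.1 ± 122 with rapamycin, and AT2G41640 450.4 ± 65.7 and 422 ± 75.2. AT4G20830 had 1679 ± 185 and 1609.7 ± 330.1, and AT3G06770 323 ± 127 and 364 ± 105 (SD, n = 2). The mean was thus higher with rapamycin at AT3G06770 and lower at the others named here.

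Splice site choice depends on proteins that bind the pre-messenger RNA, and transcripts with early stop codons are removed by nonsense-mediated decay. Of a list of 45 genes of these processes, drawn from general knowledge and covering SR proteins, polypyrimidine tract binding proteins, U1 and U2AF subunits, other spliceosome parts, cap binding, poly(A) site choice and decay, 0 rose and 0 fell for rapamycin in RiD by the same test, where 22% of all loci were called, 12.3% higher and 9.72% lower. For brassinolide in RiD 0 rose and 0 fell, against 6.76% of all loci, 4.63% higher and 2.13% lower, and for Col-0 rapamycin 0 rose and 0 fell against 0%. At an unadjusted p of 0.05 the numbers were 3 of 45 for rapamycin in RiD, 2 for brassinolide and 2 for Col-0 rapamycin, beside 35%, 20% and 2.39% of all loci. These counts depend on the fit: the libraries numbered 1 and 2 differ in depth in every group, and with the number as a block 7 of the 45 rose and 5 fell with rapamycin in RiD, where 48.2% of all loci were called, 24.1% higher and 24.1% lower. With brassinolide 2 rose and 2 fell in that fit, where 27.6% of all loci were called, 14.8% higher and 12.8% lower, and for Col-0 rapamycin 0 rose and 0 fell, beside 0.185% of all loci, 0.0215% higher and 0.163% lower. The median log2 difference of the list was 0.08 with rapamycin in RiD, 0.02 with brassinolide and 0.14 with rapamycin in Col-0, beside -0.03, -0.02 and -0.00 over all loci.

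Among the listed genes, the glycine-rich RNA-binding protein GRP7, which regulates splicing of its own and other transcripts, had 36156 and 25308 normalized counts in RiD mock, 21251 and 15654 in RiD rapamycin, with 19578 and 15154 in RiD brassinolide. In Col-0 it had 42087 and 30871 with mock and 41921 and 36526 with rapamycin. The 4 treated RiD libraries were the lowest of the 10. By limma the adjusted p of GRP7 against RiD mock was 0.0818 with rapamycin and 0.118 with brassinolide, and with the number as a block it was 7.63e-06 and 8.58e-06. SCL33, an SR-like splicing factor, had 1629 and 1360 in RiD mock, 2214 and 2021 in RiD rapamycin, then 2425 and 1868 in RiD brassinolide, beside 1750 and 1584 in Col-0 mock, with 1941 and 2176 in Col-0 rapamycin. By limma its adjusted p against RiD mock was 0.0792 with rapamycin and 0.146 with brassinolide, and with the block for SCL33 0.00179 and 0.00331. These 2 genes were named after their values were seen.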

How the data were processed

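The deposited table holds signal values, normalized counts per transcript, in 10 columns; the authors made them with Salmon and DESeq2, per the submitters' processing notes. The sources used here give no version, setting, build, annotation or use of the strand. Columns were matched to samples by title, with 0 columns unmatched. Transcript names were matched to RefSeq's TAIR10.1 annotation (38929 of 40812 rows, 95.4%). The members and lists were chosen with earlier results of these data known, all 18 members are named, and the transcript with the largest mean share change leads at a locus. Shares were tested by limma 3.58.1 in R 4.3.3 on log2((transcript + 5)/(rest of the locus + 5)) in the 6 Col-0 and RiD brassinolide libraries, with 3 residual degrees of freedom, a sum of at least 200 in each of them, a trend on the locus sum and robust moderation. In loci with 2 rows 1 row was tested. Locus sums were tested as log2(sum + 1) over all 10 libraries, where 2 or more libraries reached 1 normalized count. The plan assumed these units. Low values count as whole within 0.1 of a read; the step of 1 read varied between transcripts, so reads were not recovered and no count model was used. Shares were not corrected for length; per length, the same 18 loci passed. Alternatives changed the constants, filters, scale, libraries and the use of the library number as a block.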

Additional observations from a re-analysis of the deposited data

Results flagged for a closer look

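At 4 loci both numbered pairs moved one way with rapamycin in RiD and both pairs moved the other way in Col-0; the difference between the lines was not tested. The share of AT1G07280.2 changed by a mean of 0.610 in RiD and -0.0243 in Col-0. That of AT1G67800.4 changed by -0.295 in RiD and 0.122 in Col-0. That of AT2G41640.1 changed by 0.390 in RiD and -0.147 in Col-0, and that of AT4G20830.1 by -0.293 in RiD and 0.0473 in Col-0. At all 4 loci the mean change in Col-0 was smaller than the difference between the replicates of Col-0 mock and between those of Col-0 rapamycin.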

How the results depend on the processing

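The number of loci depended on the thresholds of the rule: 36 passed with a change of 0.15, 6 with 0.3, 35 with a sum of 100, 6 with a sum of 500 and 11 with all 4 pairings; with 1 pair alone, 119 passed without replicate 1 and 250 without replicate 2. The share tests called 0 loci under each alternative run, the replicate block included, and the smallest adjusted p of a member's row ran from 0.233 to 1 for brassinolide and from 0.340 to 1 for Col-0 rapamycin. Of the 5 leading transcripts named with a test, AT2G43490.1 ranged from -0.89 to 0.82, IBM1.1 from -1.16 to 0.19, BCA4.2 from -1.55 to -0.14, AT2G41640.1 from 0.30 to 1.52 and AT4G20830.1 from -1.45 to -0.66 for brassinolide when 1 library was left out, with the sign reversed for AT2G43490.1 without Col-0 mock replicate 1 (0.13) or RiD brassinolide replicate 1, and for IBM1.1 without Col-0 mock replicate 2; the cause was not tested. With the replicate block, locus sums gave 11215 calls for rapamycin in RiD, 6424 for brassinolide and 43 for Col-0 rapamycin, and of the splicing and decay list 7 rose and 5 fell with rapamycin in RiD and 2 rose and 2 fell with brassinolide. Same-numbered libraries deviated together, with correlations of 0.32 to 0.511 for locus sums and 0.0836 to 0.525 for shares over 10 pairs of groups, and what the number means is not stated. Leaving out 1 library, the calls ranged from 2929 to 4672 for rapamycin in RiD, 478 to 1320 for brassinolide and 0 to 1 for Col-0 rapamycin. With 2 libraries a group and 3 residual degrees of freedom, the 95% intervals for brassinolide held the size described in RiD at 12 of the 15 loci tested.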
